A study of Schmidtea mediterranea with 48 samples.

Results

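Control heads of the planarian *Schmidtea mediterranea* were followed over the RNAi feeding schedule, with week 5 set against week 2. They were taken as the control columns of the head count table, which gave 12 of the 48 libraries of the series: 3 each at weeks 2, 3, 4 and 5, of which the 3 of week 5 and the 3 of week 2 carry the main comparison. All animals were of the clonal asexual CIW4 strain and had been fed liver mixed with double-stranded RNA against *unc-22*, a *C. elegans* gene used as the control, so no planarian gene was targeted. They were starved before the cut, which ran just behind the eyes, and each library pooled several animals. The other groups used here are control tails on the same schedule (12 libraries) and heads of animals fed double-stranded RNA against *nr4A*, a nuclear receptor gene (12 libraries). Since every head of a given week shares its number of feedings, its time since the first feeding and its collection, these cannot be told apart.

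A planarian head piece holds brain, sense organs, body wall muscle, ciliated epidermis, gut branches and parenchyma. Neoblasts, the dividing stem cells, replace all of these tissues throughout life, and body size follows food intake. Body wall muscle also expresses the position control genes that mark the head-to-tail axis, among them *foxD* and *notum* at the anterior pole and *ndk* and the *ndl* genes across the head. In pieces of whole tissue, fewer cells of a type and less RNA per cell cannot be told apart.

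The control heads held 16750697 to 27491137 counts on contigs of the dd_Smed_v4 transcriptome, which were scaled to CPM, the share of a library's counts. Mitochondrial RNA took 12.4% to 13.5% of the counts. The libraries matched their label: the 8 head markers summed to 977 to 1061 CPM in the 12 control heads, against 57.3 to 72.6 CPM in the 12 control tails, and the tail gene *wnt1* stood at 1.19 to 2.33 CPM in heads. Replicates were close, with a biological coefficient of variation of 5.16% over the control heads, against 9.04% in the control tails and 24.5% in the *nr4A* heads. Scaling factors (TMM, the trimmed mean that equalizes library composition) were 0.966 to 0.979 at week 5 and 1.02 to 1.04 at week 2, without overlap. CPM values hold these factors and are not plain shares of the counts. Over all contigs tested they summed to 1021850 to 1035570 at week 5 and 965176 to 984747 at week 2. The gene names below are best BLAST matches given by the study for 653 contigs, 648 of which were tested. Those were largely contigs from the study's own lists and are no random sample of the transcriptome. Most of the contigs described were chosen from 19 lists of 232 contigs, of which 230 were tested and 60 called.

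Week 5 heads differed from week 2 heads in many transcripts and by little in each. Of 19109 contigs tested with edgeR, 3190 passed an adjusted p of 0.05 (16.7% of those tested): 1965 were higher at week 5 (10.3%) and 1225 lower (6.41%). The median size of the change among them was 0.28 on the log2 scale. Only 78 of the higher and 57 of the lower contigs changed by more than 1 on that scale. The share called followed the level, and the median SE fell with it to 0.0437 for contigs above 100 CPM, against 0.365 under 1 CPM: 3.16% of contigs under a mean of 1 CPM were called, 9.25% between 1 and 10 CPM, 20.0% between 10 and 100 CPM and 40.2% above 100 CPM. The 3 libraries of week 5 did not overlap the 3 of week 2 for 6202 contigs (32.5%). Of 10646 contigs with a mean of at least 10 CPM 24.1% were called, and of the 648 named contigs 21.1%, which is the background for the counts of listed genes below.

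The count depended on 1 library at each end. Without replicate 2 of week 5 the count was 1621, and without replicate 1 of week 2 it was 1701, while leaving out any one of the other 10 libraries gave 2494 to 3281. When the *nr4A* heads, whose spread was larger, were added to the fit, 320 contigs passed, all of them among the 3190. The cause of this lower count was not tested.

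A principal component analysis of 11360 contigs placed weeks 2 and 5 on opposite sides of the first component, which held 39.5% of the variance. Week 2 libraries scored -14.9, -12.7 and -5.25, week 3 libraries -1.09 to 1.87, week 4 libraries -2.32 to 5.05, and week 5 libraries 8.28, 14.7 and 4.56. Weeks 3 and 4 overlapped each other between the end points, and 1 week 4 library scored above the lowest week 5 library. The second component (14.9%) set weeks 3 and 4, at -7.35 to -3.08, apart from weeks 5 and 2, at 1.41 to 6.95.

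**Figure D1:**
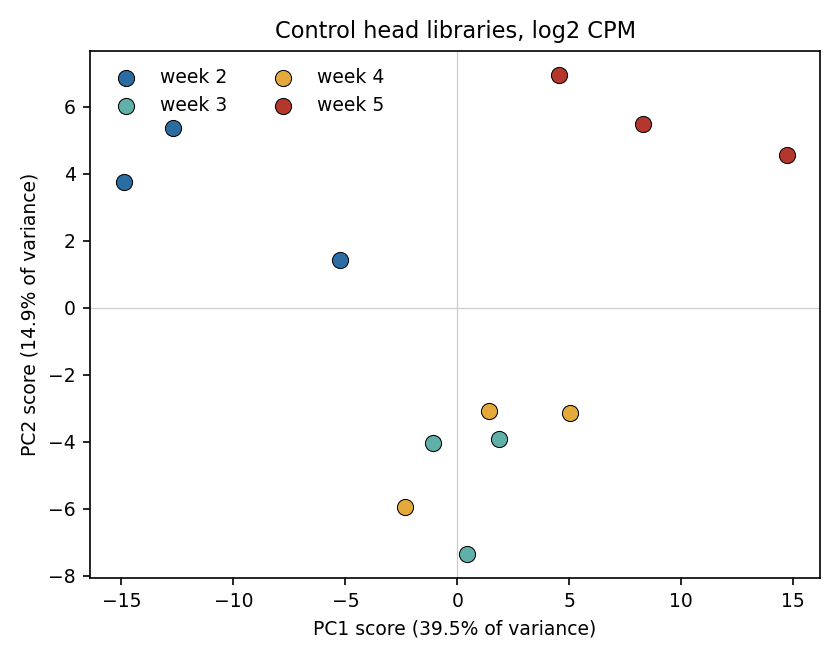
Scores of the 12 control head libraries on the first (x axis, 39.5% of the variance) and second (y axis, 14.9%) principal components of log2 CPM, 1 point per library, coloured by week. Week 2 lies at the left and week 5 at the right, with weeks 3 and 4 mixed together below.

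Between adjacent weeks, most calls came in an early and a late step. Week 3 heads differed from week 2 heads in 551 contigs (2.88%; 358 higher, 1.87%, and 193 lower, 1.01%), and week 5 heads from week 4 heads in 536 (2.8%; 398 higher, 2.08%, and 138 lower, 0.722%). Between weeks 4 and 3 only 13 contigs passed (0.068%; 6 higher, 0.0314%, and 7 lower, 0.0366%), with 1216 at an unadjusted p under 0.05. The only one of the 13 with a name was *PHGDH* (dd_6254), the first enzyme of serine synthesis, which averaged 22.7 ± 2.84 CPM at week 4 and 34.0 ± 1.41 CPM at week 3 (SD, n = 3 each; log2 fold change -0.58 ± 0.09 SE, adjusted p = 0.0212). These counts moved with single libraries too: the first step had 176 calls without replicate 1 of week 2, 300 without its replicate 2 and at most 310 without any one library of week 3. The last step had 140 without replicate 2 of week 4, 245 without replicate 2 of week 5 and 345 without its replicate 1. The middle step had 2 to 16. The middle step shares no library with the comparison of week 5 and week 2. Of the 1965 contigs higher at week 5, 67.2% stood higher at week 4 than at week 3, and of the 1225 lower ones 38.0% did, against 50.1% of all contigs tested. Week means rose at every step in 49.5% of the 1965, against 9.28% of all contigs tested. They fell at every step in 47.0% of the 1225, against 9.06% of all. These contigs were chosen on weeks 5 and 2, which itself raises such shares. A fit of a steady slope per week called 2347 contigs (12.3%), 1467 rising (7.68%) and 880 falling (4.61%).

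**Figure D2:**
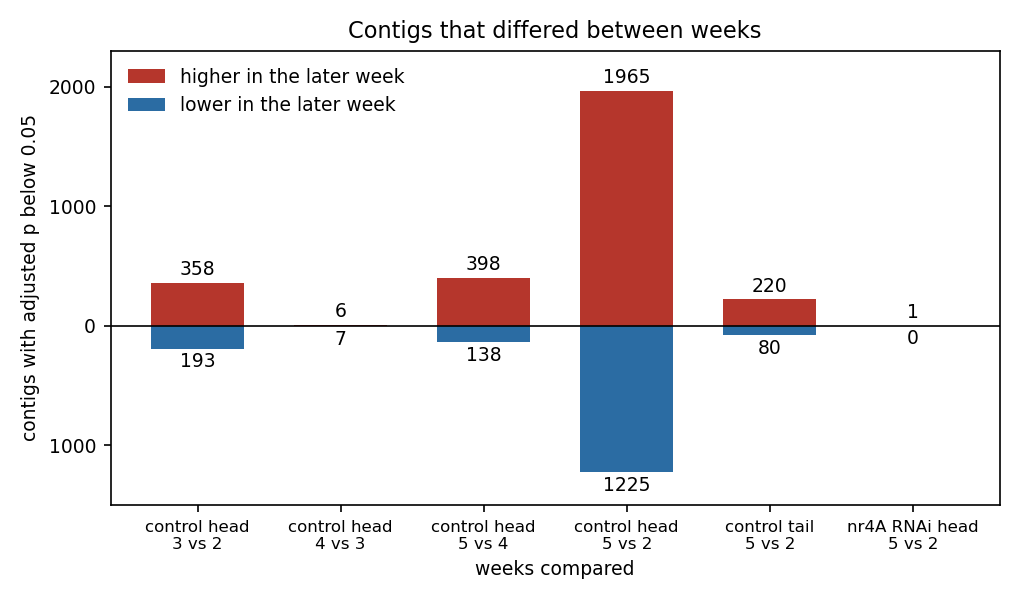
Number of contigs with an adjusted p below 0.05 (y axis), higher above the line and lower below it, for each pair of weeks (x axis), later week over earlier week. The comparison of week 5 with week 2 in control heads has 1965 higher and 1225 lower contigs, against 220 and 80 in control tails and 1 and 0 in *nr4A* heads. The biological coefficient of variation was 5.16%, 9.04% and 24.5% in these groups, so the counts do not compare the size of the changes.

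Not every change was a drift in one direction. The first step (week 3 against week 2) and the last (week 5 against week 4) share no library, and 78 contigs were called in both, which is 14.2% of the first list and 14.6% of the last. In 62 of those 78 the directions were opposite: 39 contigs were lower at week 3 and higher again at week 5, and 23 the reverse. In 16 the directions were the same. Over all first-step calls only the lower contigs ran the other way in most cases: of 193 lower at week 3, 32.1% were negative in the last step, against 51.7% of all contigs, and of 358 higher at week 3, 51.7% were positive, against 48.3% of all. With all 24 head libraries in the fit, 1 contig was called in both steps, in the same direction. A single library moved this split: without replicate 3 of week 2 it was 67 opposite and 48 the same, and without replicate 3 of week 5 it was 53 and 40. Of the 62, 2 contigs had a name, and both are given here because they were seen in that count. Insulin receptor-like 1 (dd_9272), a receptor for insulin-like growth signals, averaged 89.1 ± 3.10, 99.9 ± 3.10, 101 ± 4.98 and 89.6 ± 1.01 CPM at weeks 2, 3, 4 and 5 (SD, n = 3 each). A contig named as an LDL receptor homolog, *Smed-ldlr* (dd_9829), ran the other way, at 58.2 ± 1.18, 51.1 ± 1.90, 49.4 ± 1.57 and 57.8 ± 2.20 CPM.

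Contractile genes of muscle were the listed group that moved most evenly. Of 14 contigs on the list, 10 rose (71.4%) and none fell. The list had a median level of 745 CPM, and of all contigs above 100 CPM 40.2% were called in either direction. All 14 had a positive log2 fold change, with a median of 0.21 against -0.01 for all contigs tested. The 14 contigs summed to 14370.0, 14610.0 and 15590.0 CPM in the week 5 heads, against 12720.0, 12830.0 and 12210.0 CPM at week 2. Weeks 3 and 4 lay between, at 13360.0 to 14110.0 CPM.

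The myosin heavy chain contigs, whose products form the thick filaments, led the group. *MYH7* (dd_249) stood at 2174, 2174 and 2325 CPM at week 5, against 1848, 1884 and 1857 CPM at week 2 (log2 fold change 0.26 ± 0.04 SE, adjusted p = 0.000333). *MYH1* (dd_711) had 1261, 1276 and 1358 CPM, against 1080.2, 1113 and 1083 CPM (0.25 ± 0.04, adjusted p = 0.000307). The first of the *mhcA* contigs (dd_432) had 4859, 4981 and 5390 CPM, against 4369, 4280 and 3915 CPM (0.28 ± 0.05, adjusted p = 0.000955). In each of these the groups did not overlap. Myosin heavy chain contigs are similar in sequence and may share reads, so the split between them is uncertain.

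Other contractile genes on the list rose by a like amount: a myosin light chain (*MYL6B*, 0.22), a pair of tropomyosins (*TPM1*, 0.20 and 0.23), calponin (*CNN2*, 0.24), the actin capping protein *CAPZB* (0.18) and the calcium pump of the sarcoplasmic reticulum, *ATP2A2* (0.17). The remaining 4 did not pass: *ACTN2* (0.15, adjusted p = 0.0710), *TTN* (0.10), *TAGLN* (0.09) and *myoD* (0.03), the last a transcription factor of muscle. The count of 10 was the same without any one of the 12 libraries. It was 0 when the *nr4A* heads shared the fit.

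Collagens, which planarian muscle also makes, gave no calls. None of 10 fibrillar and related collagen contigs passed between week 5 and week 2, and their median was 0.02. *COL2A1* (dd_702) had the smallest p, at 1369, 1248 and 1346 CPM at week 5 against 1241, 1232 and 1211 CPM at week 2 (0.11 ± 0.06, adjusted p = 0.214). *COL1A2* (dd_832) stood at 1442, 1302 and 1418 CPM, against 1336, 1336 and 1287 CPM, which overlap. Over the 4 weeks the 10 contigs summed to 11780.0 to 12220.0 CPM at week 2, 10050.0 to 11020.0 at week 3, 10670.0 to 13110.0 at week 4 and 11230.0 to 13000.0 at week 5. All 10 were negative at week 3 against week 2 (median -0.18), and none passed. On the list of basement membrane and matrix genes, 1 of 15 was called: *COL4A6* (dd_2500), a chain of the collagen IV network, fell to 181, 159.8 and 182 CPM, against 205, 192 and 198 CPM at week 2 (-0.19 ± 0.05, adjusted p = 0.0154). It did not pass without replicate 1 of week 2 or without replicate 2 of week 5. The other 2 named contigs of that list did not pass, *ADAMTSL1* at 0.15 (adjusted p = 0.0510) and *MXRA5* at -0.13 (adjusted p = 0.0603).

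**Figure D3:**
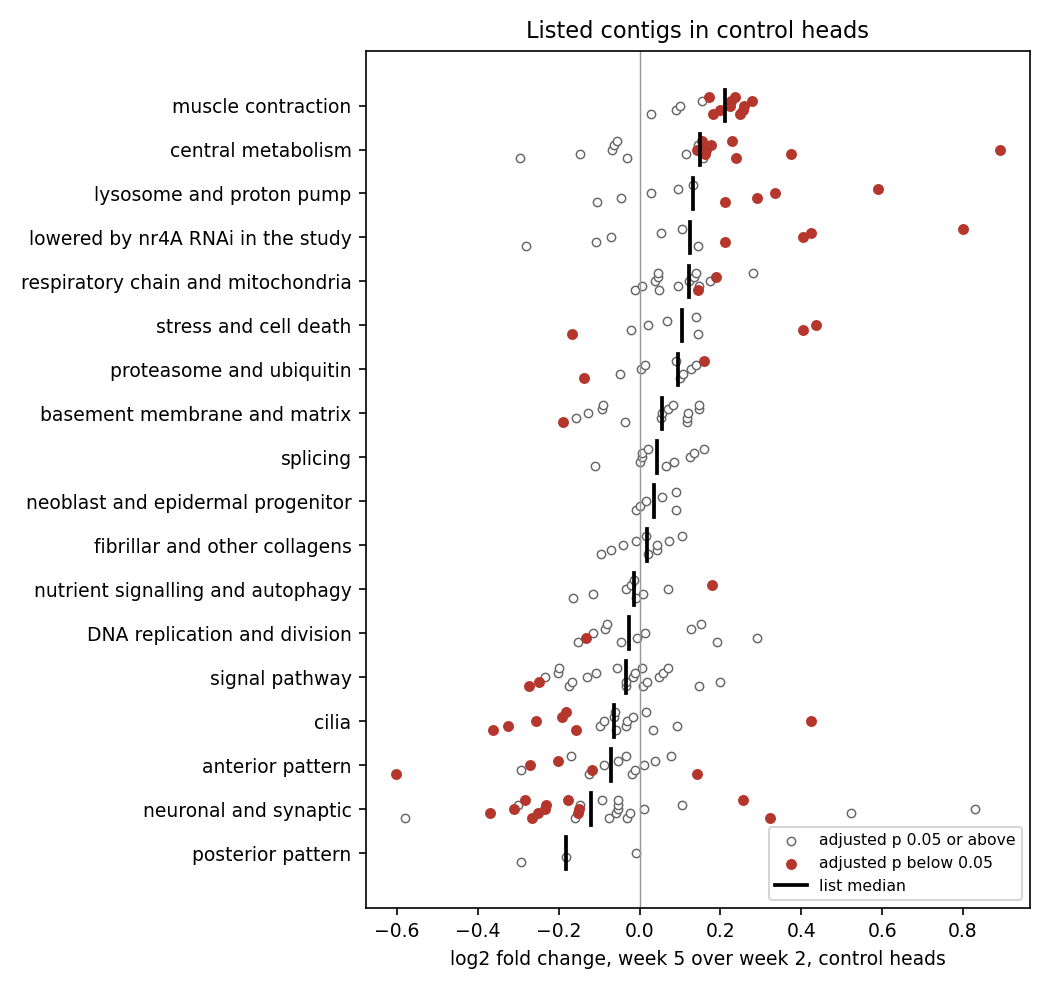
Log2 fold change, week 5 over week 2, of each tested contig (x axis) in 18 lists (y axis), with filled points for an adjusted p below 0.05, open points for the rest and a bar at the list median. Muscle contraction lies wholly right of 0, with a median of 0.21, and the neuronal and synaptic list mostly left of it, at -0.12.

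Genes of lysosomes and of central metabolism held further rises. Of 9 lysosome and proton pump contigs 4 rose (44.4%) and none fell (median 0.13). Of 18 metabolic contigs 9 rose (50.0%) and none fell (median 0.15). The median levels of these lists were 171 and 58.1 CPM. Of all contigs above 100 CPM 40.2% were called in either direction, so the lysosome count is near the share for its level. Between 10 and 100 CPM that share was 20.0%. *PSAP* (dd_241), the precursor of saposins, which help lysosomal enzymes to break down sphingolipids, stood at 969, 1160.1 and 823 CPM at week 5, against 605, 612 and 744 CPM at week 2 (0.59 ± 0.09, adjusted p = 0.000315). Replicate 2 of week 5 was the highest of the 12 heads, and the groups did not overlap. *GAA*, the lysosomal glucosidase of glycogen, rose by 0.29 ± 0.07 and the second saposin-like contig, *psapl1* (dd_1706), by 0.21 ± 0.06.

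Among metabolic genes, *ACSS3* (dd_8062), an acyl-CoA synthetase of mitochondria, had the largest rise of any named contig. It stood at 14.2, 15.4 and 10.2 CPM at week 5, against 7.09, 6.32 and 8.26 CPM at week 2 (0.89 ± 0.16, adjusted p = 0.000723). *ALDH2*, which oxidizes aldehydes in mitochondria, rose to 90.9, 105 and 83.0 CPM, against 67.6, 67.6 and 79.7 CPM (0.38 ± 0.07, adjusted p = 0.00183). *GALM*, which readies galactose for breakdown, rose by 0.23 ± 0.04, the glycine cleavage gene *AMT* by 0.24, pyruvate carboxylase (*PC*) by 0.15 and pyruvate kinase (*PKM*) by 0.17. The libraries at both ends mattered here too: without replicate 1 of week 2, 4 of the 18 passed, and without replicate 2 of week 5, 6 did.

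Other groups tied to growth and protein turnover gave a smaller share of calls. The respiratory chain list had a median level of 29.75 CPM, and 20.0% of all contigs between 10 and 100 CPM were called. Its median change, 0.12, was near that of the lysosome list, 0.13. Of 15 contigs for the respiratory chain and mitochondria, 14 were positive (median 0.12) and 2 rose, *UQCRH* of complex III (0.19 ± 0.06, adjusted p = 0.0262) and *ATP5O* of the ATP synthase (0.14 ± 0.04, adjusted p = 0.0271). Neither passed without replicate 1 of week 2, replicate 1 of week 5 or replicate 2 of week 5. *NDUFB9* of complex I, stood at 0.15 (adjusted p = 0.0745). Of 9 tested contigs for nutrient signalling and autophagy, 1 rose: *EEF2K*, the kinase that slows translation elongation, by 0.18 ± 0.04 (adjusted p = 0.00416). *raptor*, a subunit of the TORC1 kinase complex, was at -0.16 (adjusted p = 0.181) and the autophagy kinase *ULK1* at -0.11 (adjusted p = 0.198). On the proteasome and ubiquitin list 1 of 10 rose (*UBE2G1*, a ubiquitin-conjugating enzyme, 0.16) and 1 fell (*CUL2*, a scaffold of ubiquitin ligases, -0.14), while the proteasome subunit *PSMD13* was at 0.14 (adjusted p = 0.0587). Both calls were marginal (adjusted p = 0.0487 for *UBE2G1* and 0.0475 for *CUL2*): of 20 alternative settings, 10 ended that of *UBE2G1* and 17 that of *CUL2*, and with the replicate block neither passed. None of 10 splicing contigs passed. Their 3 smallest p-values belonged to *SF3B1* (0.13, adjusted p = 0.0535), *SNRPE* (0.16, adjusted p = 0.0705) and *CRNKL1* (0.13, adjusted p = 0.149).

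The most raised named contigs included *vim* and 2 alpha tubulins. *vim* (dd_950), matched to the intermediate filament protein vimentin, stood at 1019.7, 951 and 1120.0 CPM at week 5, against 522, 626 and 628 CPM at week 2 (0.80 ± 0.09, adjusted p = 1.37e-05). Weeks 3 and 4 gave 468 to 662 CPM, which overlap week 2 and lie under every week 5 library. *TUBA1B* (dd_718), an alpha tubulin, had 364, 355 and 374 CPM, against 244, 233 and 236 CPM (0.62 ± 0.05, adjusted p = 3.98e-07). *TUBA3D* (dd_508), also an alpha tubulin, had 1016, 967 and 1084 CPM, against 760.3, 794 and 732 CPM (0.42 ± 0.06, adjusted p = 5.38e-05). Alpha tubulins are nearly identical, so reads may be shared between them.

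On the list of 8 stress and cell death contigs, 2 rose and 1 fell. *hspb1* (dd_2736), a small heat shock protein that holds unfolded proteins, rose to 206, 208 and 221 CPM, against 160, 167 and 153 CPM (0.40 ± 0.05, adjusted p = 1.37e-05). The co-chaperone *hsp40* (dd_3588) rose to 48.4, 50.3 and 52.5 CPM, against 37.2, 38.7 and 35.8 CPM (0.44 ± 0.05, adjusted p = 2.06e-05), and weeks 3 and 4 were already at 46.6 to 54.4 CPM. The one that fell, *SARM1*, an enzyme that drives axon breakdown in other animals, did so by 0.17 on the log2 scale (adjusted p = 0.00820), a call that ended without replicate 1 of week 2. Outside the lists, *NPEPL1* (dd_181), an aminopeptidase, rose by 0.43 ± 0.05 and the cyclophilin *PPIC* (dd_348) by 0.47 ± 0.06. *GalNAc-T10* (dd_5242), which starts O-linked glycans, rose by 0.38 ± 0.13 (adjusted p = 0.0496), a call that ended in 10 of 20 alternative settings, DESeq2 and each week 2 library left out among them. *PPIC* moved in steps and not steadily, with means of 114, 154, 129.7 and 157 CPM at weeks 2, 3, 4 and 5.

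**Figure D4:**
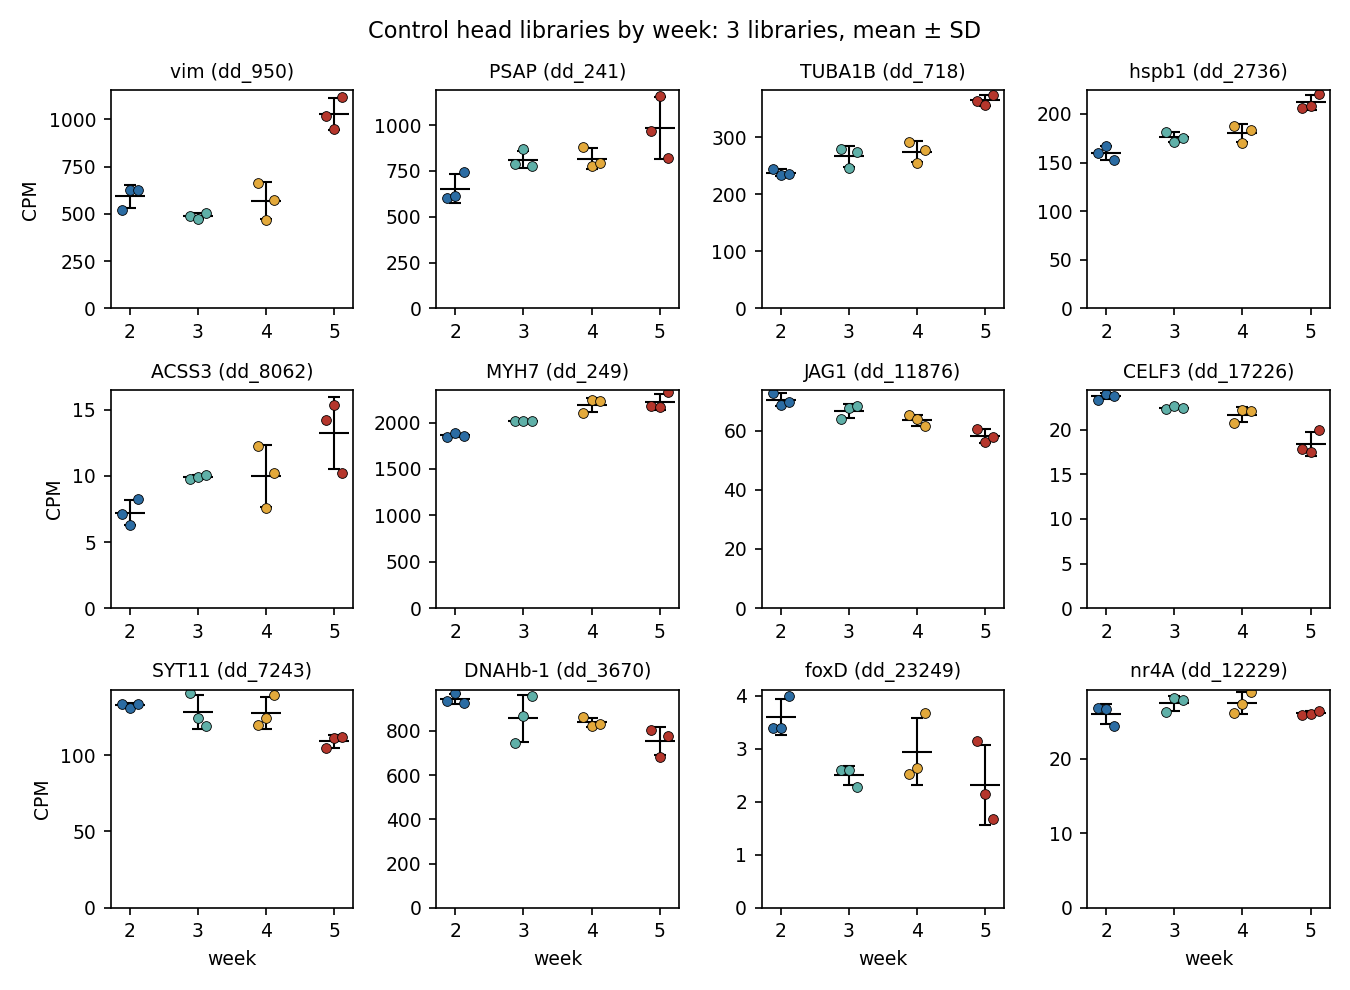
CPM (y axis, from 0) by week (x axis) for 12 named contigs in control heads, with 1 point per library and bars for the mean ± SD of 3. The contigs *vim* and *TUBA1B* are highest at week 5, *JAG1* and *CELF3* are lowest there, *hspb1* and *MYH7* climb over the weeks, and *nr4A* stays between 24.4 and 29.0 CPM.

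The neuronal and synaptic list had the most falls by number and was also the longest list. Of its 28 contigs 10 fell (35.7%) and 2 rose (7.14%), with a median of -0.12, and 22 of the 28 were negative. The share that fell was 33.3% on the cilia list, 9.88% of all named contigs and 6.41% of all contigs tested. The sum of the 28 was 2003, 1986 and 2051 CPM in week 5 heads, against 2175, 2146 and 2151 CPM in week 2 heads, with weeks 3 and 4 at 2115 to 2199 CPM. The 6 neuron markers summed to 667 to 697 CPM at week 5 and 735 to 766 CPM at week 2, without overlap. These 6 are members of the same list, with *pc2*, *spp-13* and *GRIA1* among its falls, so their sum is not separate support.

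*CELF3* (dd_17226), an RNA-binding splicing regulator of neurons, fell to 17.8, 17.5 and 20.0 CPM at week 5, against 23.4, 24.03 and 23.8 CPM at week 2 (-0.37 ± 0.06, adjusted p = 0.000658). Several genes of transmitter release fell with it. *SYT11* (dd_7243), a synaptotagmin of vesicle trafficking, stood at 104, 111 and 112 CPM, against 133, 130.9 and 134 CPM (-0.28 ± 0.06, adjusted p = 0.00289). *UNC13B*, which primes vesicles for release, had 2 contigs that fell, dd_11981 by 0.25 and dd_11394 by 0.23 on the log2 scale. *CACNA1H* (dd_14730), a voltage-gated calcium channel, stood at 42.6, 38.5 and 40.1 CPM, against 54.1, 44.0 and 52.5 CPM (-0.31 ± 0.07, adjusted p = 0.00319).

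Also lower were the glutamate receptor *GRIA1* (-0.18), the potassium channel partner *KCNIP1* (-0.23), the neuropeptide convertase *pc2* (-0.15), the neuropeptide precursor *spp-13* (-0.27) and the synaptic adhesion gene *NLGN4Y* (-0.15). The 2 that rose were the calcium sensor *NCALD* (dd_1970), at 81.7, 75.4 and 79.9 CPM against 63.1, 67.1 and 59.3 CPM (0.32 ± 0.06, adjusted p = 0.00113), and the potassium channel *KCND3* (0.25, adjusted p = 0.0382). Without replicate 2 of week 5, and likewise without replicate 1 of week 2, 8 of the 28 fell and 1 rose.

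Several named contigs outside the lists were among the most lowered. *PCDH9* (dd_14613), a protocadherin, stood at 38.7, 38.4 and 38.7 CPM, against 52.3, 45.8 and 48.5 CPM (-0.34 ± 0.05, adjusted p = 0.000220). Its call ended in 1 of 20 alternative settings, the fit with all 24 head libraries. The study's text names a *pcdh9* among its new pole genes, without a contig number. *ANK3* (dd_29517), an ankyrin that anchors membrane proteins to the cytoskeleton, fell by 0.33 on the log2 scale (adjusted p = 0.0151). *FOXRED1* (dd_10791), which in human cells helps to assemble mitochondrial complex I, stood at 47.7, 45.8 and 48.7 CPM, against 61.7, 67.6 and 56.0 CPM (-0.38 ± 0.07, adjusted p = 0.000692), and a contig matched to the 1020HH-1 protein (dd_5133) fell by 0.28 on the log2 scale (adjusted p = 0.0167). The call of *ANK3* ended without replicate 2 of week 2, and that of the 1020HH-1 contig without replicate 3 of week 2, replicate 1 of week 5 or replicate 3 of week 5. Weeks 3 and 4 of *FOXRED1* were at 40.5 to 46.9 CPM, so most of its difference was already there at week 3. On the list of 22 signal pathway contigs, 2 fell (9.09%, against 9.88% of all named contigs) and none rose. Both have names of the Notch pathway: the ligand *JAG1* (dd_11876) stood at 60.6, 56.2 and 57.8 CPM, against 72.9, 68.6 and 69.8 CPM (-0.27 ± 0.05, adjusted p = 0.000510), and the receptor *NOTCH2* (dd_13045) at 47.2, 44.4 and 43.5 CPM, against 53.8, 54.5 and 52.5 CPM (-0.25 ± 0.05, adjusted p = 0.00393). *smoothened*, the Hedgehog signal transducer, was at -0.13 (adjusted p = 0.0650). The list as a whole had a median of -0.03.

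Called genes of cilia were lower with 1 exception. Of 18 contigs 6 fell and 1 rose, with a median of -0.06; the one that rose is the tubulin *TUBA3D* given above, which is not particular to cilia. *DNAHb-1* (dd_3670), a dynein heavy chain of the axoneme, fell to 802, 682 and 778 CPM at week 5, against 936, 971 and 926 CPM at week 2 (-0.32 ± 0.07, adjusted p = 0.00327). *DNAH3* fell to 105, 93.8 and 105 CPM, against 128, 122 and 112 CPM (-0.26 ± 0.06, adjusted p = 0.00453). *DCDC2*, *WDR66*, *WDR96* and the tektin *TEKT3* fell by 0.16 to 0.36 on the log2 scale, the call of *DCDC2* ending in 10 of 20 settings. Without replicate 2 of week 5, and likewise without replicate 1 of week 2, 2 of the 18 fell. The summed ciliated cell markers were 208 to 231 CPM at week 5 and 229.6 to 253.5 CPM at week 2, which overlap.

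Genes of dividing cells and progenitors gave 1 call. Of 12 contigs for DNA replication and division 1 was called, the chromatin protein *HMGB2*, which fell by 0.13 on the log2 scale (adjusted p = 0.0377). That call ended in 9 of 20 alternative settings, among them each week 2 library left out, replicates 1 and 2 of week 5 left out, no filter and the replicate block. *TUBG1*, gamma tubulin of the centrosome, stood at 0.15 (adjusted p = 0.106) and the mitotic kinase *PLK1* at -0.15 (adjusted p = 0.110). None of 6 neoblast and epidermal progenitor contigs passed. The germ cell and neoblast helicase *vasa-2* stood at 70.2, 69.6 and 63.4 CPM at week 5, against 65.9, 61.0 and 68.9 CPM at week 2 (0.05 ± 0.05). *agat-1*, expressed by late epidermal progenitors, stood at 524, 526 and 524 CPM, against 474, 507 and 498 CPM (0.09 ± 0.04, adjusted p = 0.131), and the histone-like marker contig X1.A5.1 at 0.09 ± 0.07. The summed markers of dividing cells were 145 to 150.5 CPM at week 5 and 147 to 152 CPM at week 2. Sums over each whole list did not overlap between these weeks. The 12 division contigs summed to 380.4, 381.8 and 388.9 CPM at week 5, against 403.1, 412.0 and 404.1 CPM at week 2. The 6 progenitor contigs, with *agat-1* as the largest part, summed to 718.1, 720.4 and 715.8 CPM, against 659.4, 683.9 and 700.0 CPM. These sums were not tested.

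Genes on the anterior patterning list gave marginal calls in both directions. That list also holds *slit1*, one of the falls, and the study describes *slit* as a midline gene along the body. Of 16 contigs 4 fell (25.0%, against 9.88% of all named contigs) and 1 rose (6.25%, against 11.3%). In either direction 31.2% were called, against 21.1% of all named contigs and 24.1% of contigs with a mean of at least 10 CPM. The median was -0.07, and 4 of the 16 were positive. The pole gene *foxD* (dd_23249), a forkhead factor, stood at 3.14, 2.14 and 1.67 CPM at week 5, against 3.40, 3.39 and 3.98 CPM at week 2 (-0.60 ± 0.20, adjusted p = 0.0442). *notum*, the Wnt inhibitor of the same pole, stood at 7.23, 6.97 and 6.37 CPM, against 6.33, 8.13 and 6.001 CPM (0.01 ± 0.14, adjusted p = 0.972). *ndk*, an FGF receptor-like head gene, fell to 245, 242 and 251 CPM, against 277.3, 266 and 257 CPM (-0.12 ± 0.04, adjusted p = 0.0476), while its relative *ndl-5* rose to 288, 284 and 296 CPM, against 265, 263 and 259 CPM (0.14 ± 0.04, adjusted p = 0.0252).

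The midline guidance gene *slit1* (-0.27 ± 0.08, adjusted p = 0.0199) and the Wnt receptor *fz5/8-3* (-0.20 ± 0.07, adjusted p = 0.0425) also fell. The adjusted p-values of the 5 calls ran between 0.0199 and 0.0476, and none passed without replicate 2 of week 5 or without replicate 1 of week 2. The call of *foxD* ended in 12 of the 19 settings that tested it and that of *ndk* in 15 of 20. Among homeobox genes outside the list, *otxb-like* (dd_15516) fell to 6.38, 6.82 and 5.13 CPM, against 8.36, 7.95 and 7.83 CPM (-0.38 ± 0.11, adjusted p = 0.0234), and *NKX2-4* (dd_33456) fell by 0.38 on the log2 scale (adjusted p = 0.0318). These 2 calls ended in 4 and 6 of 20 settings, both without replicate 1 of week 2. The 3 tested posterior contigs did not pass, with *wnt1* at 1.60, 1.69 and 1.73 CPM against 2.33, 1.63 and 2.21 CPM, *pitx* at -0.18 (adjusted p = 0.411) and *islet1* at -0.01 (adjusted p = 0.946).

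No change of *nr4A* itself was detected in these heads. It stood at 25.9, 26.1 and 26.5 CPM at week 5, against 26.9, 26.7 and 24.4 CPM at week 2 (0.01 ± 0.06, adjusted p = 0.947). *SIDT1*, named after a channel family linked to uptake of double-stranded RNA in *C. elegans*, stood at 53.5, 51.6 and 49.8 CPM, against 53.6, 53.9 and 52.6 CPM (-0.05 ± 0.05, adjusted p = 0.615).

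Of 10 contigs that the study names as lowered by *nr4A* RNAi, 4 rose in the control heads (40.0%): *vim*, *TUBA3D*, *hspb1* and *psapl1*. The share that rose was 11.3% of all named contigs and 15.9% of contigs with a mean of at least 10 CPM. The median level of the 10 was 78.2 CPM. The study chose those 10 on libraries that include these controls, so they are not independent of them. The 10 summed to 2981, 2841 and 3164 CPM at week 5, against 2095, 2288 and 2173 CPM at week 2. All 4 rose at week 5 against week 4 as well, a step that shares the week 5 libraries and is not separate support. The other 6 did not pass: *ca12*, a carbonic anhydrase (0.14, adjusted p = 0.0586), *qki*, an RNA-binding protein of the quaking family (-0.28, adjusted p = 0.0644), dd_2972 (0.10), *pcdh11y* (-0.11), *col21a1* (-0.07) and the metalloproteinase *mmp19* (0.05).

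Among contigs with a mean of at least 1 CPM and no overlap between the groups, those with the largest fold changes had no name. dd_14711 stood at 7.46, 9.86 and 9.28 CPM at week 5, against 0.304, 0.558 and 0.912 CPM at week 2, with weeks 3 and 4 at 1.24 to 3.46 CPM (3.88 ± 0.23, adjusted p = 2.94e-09). dd_12410 stood at 3.85, 4.88 and 4.21 CPM, against 0.253, 0.139 and 0.528 CPM (3.79 ± 0.28, adjusted p = 7.23e-08). In the other direction, dd_2626 stood at 1.83, 0.897 and 2.23 CPM, against 3.80, 5.07 and 5.71 CPM (-1.58 ± 0.24), and dd_32311 at 1.41, 1.30 and 1.55 CPM, against 3.65, 3.53 and 4.85 CPM (-1.50 ± 0.18). For both that rose, weeks 3 and 4 lay between the end points.

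Control tails of the same schedule, which share no library with the heads, showed the same direction for most of these contigs. Between week 5 and week 2, 300 contigs were called in the tails (1.58% of 18979), 220 higher (1.16%) and 80 lower (0.422%). Leaving out any one of the 6 tail libraries of these weeks gave 48 to 261 calls, lowest without replicate 3 of week 2, and each but replicate 2 of week 5 moved the count by more than 1.5 times. Of 1955 contigs higher in week 5 heads and tested in tails, 92.1% were also positive in the tails (median 0.16), and of 1206 lower in week 5 heads 10.5% were (median -0.16), against 49.0% of all contigs. Among contigs tested in both, 230 were called in both, which is 7.28% of the head calls and 78.5% of the tail calls, and 227 of them had the same sign. Whether head and tail pieces came from the same animals is not given in the sources used here.

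Tested directly, the change in heads differed from that in tails in 2 contigs of 19962 (0.01%), with 1027 at an unadjusted p under 0.05 and 11 called by DESeq2. A contig called in heads but not in tails is therefore not shown to be particular to heads. *TUBA1B* rose in tails as well (0.52 ± 0.08, adjusted p = 0.00322), as did *hspb1* (0.39 ± 0.07, adjusted p = 0.0146), *hsp40* (0.48 ± 0.08, adjusted p = 0.0101) and *mhcA* dd_432 (0.39 ± 0.08, adjusted p = 0.0265). *psapl1* rose by 0.58 ± 0.10 in tails (adjusted p = 0.0113). In contrast, *PPIC* was at 0.05 in tails and *CELF3* at -0.02, and neither passed the direct test of its difference from heads (adjusted p = 0.754 and 0.807). Both nameless contigs that rose most in heads rose in tails too, dd_14711 by 3.68 ± 0.32 and dd_12410 by 2.82 ± 0.34. Of 60 listed contigs called in heads, 57 had the same sign in tails.

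**Figure D5:**
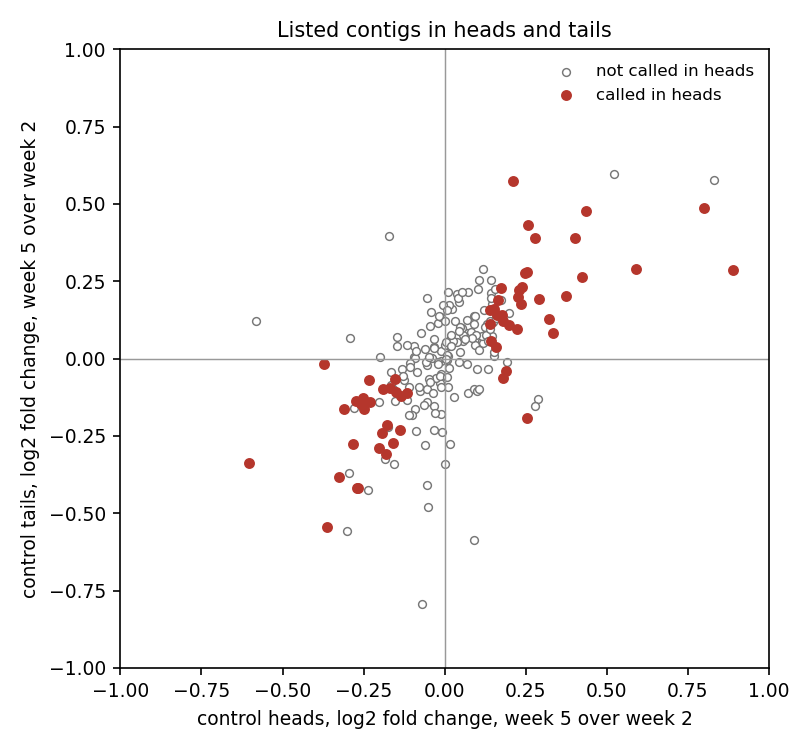
Log2 fold change, week 5 over week 2, in control heads (x axis) and control tails (y axis) for 227 listed contigs tested in both, with filled points for the 60 called in heads. Of these 60, 57 lie in the lower left or upper right, with the same sign in both tissues.

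The *nr4A* heads, whose libraries are also separate, had a biological coefficient of variation of 24.5%, against 5.16% in the control heads. A low count of calls there is therefore no measure of a smaller change. They passed the threshold in 1 contig between week 5 and week 2 (0.00525% of 19040), with 1350 at an unadjusted p under 0.05. That contig, dd_4392, is named because it is the only call, and stood at 33.5, 32.4 and 28.9 CPM in week 5 control heads, against 12.8, 12.4 and 17.1 CPM at week 2, and at 26.5 to 31.0 CPM in week 5 *nr4A* heads, against 11.7 to 14.5 CPM at week 2. Of 1958 contigs higher in week 5 control heads and tested there, 74.6% were positive in the *nr4A* heads (median 0.14). Of 1218 lower in week 5 control heads, 22.2% were positive (median -0.21), against 48.5% of all contigs. Contractile genes had a median of -0.11 in the *nr4A* heads, against 0.21 in the control heads, and this difference was not tested.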

How the data were processed

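RNA was sequenced from polyA libraries of head and tail pieces. Per the labels, the processing tools were CASAVA 1.7.0, Trimmomatic 0.32, Bowtie and DESeq; reads were mapped to the dd_Smed_v4 transcriptome. The authors deposited raw counts of reads per contig, whole numbers without normalization. Their comparison tables, with fold changes and p-values, were not used. The library kit does not mark strand.

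Non-contig rows (mitochondrial, 5S and unassigned reads) were left out and the rest summed by contig number (26402 head contigs). Counts were scaled by TMM, filtered with filterByExpr (minimum count 10, minimum total 15) and tested in edgeR 4.0.16 under R 4.3.3 with the quasi-likelihood F test and Benjamini-Hochberg adjustment over all contigs. The 12 control heads formed 1 fit with 4 group means, the 12 control tails and the 12 *nr4A* heads 1 fit each, and the head against tail contrast a fit of 24 libraries. A contig was called at an adjusted p below 0.05. Errors of log2 fold changes are SE. CPM is not scaled by transcript length, so levels are not compared between genes. In simulated counts, 21.5% of 65 contigs changed by 0.25 on the log2 scale were recovered, 50.7% of 67 changed by 0.5 and 86.4% of 66 changed by 1, with 10 false calls among 18886 contigs. Far fewer contigs changed in the simulation than were called in the data, which makes its cut-off on p stricter. These shares therefore do not measure detection in the main comparison.

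Named contigs were the 12 most raised and the 12 most lowered among named, called, non-overlapping contigs with a mean of at least 1 CPM, the 2 most raised and 2 most lowered of all contigs, the 3 smallest p-values of each of 19 lists, and *nr4A*, *SIDT1*, 5 patterning genes and the 10 contigs lowered by *nr4A* RNAi. Further called members of the lists are named where their list is described. Members and lists were chosen with earlier results of these data known. The alternatives tried were other size factors, filters, row sums and sets of libraries, DESeq2 1.42.0, a replicate block and leaving out libraries. The study describes the 3 libraries of a week as biological replicates of pooled animals, and p-values measure the spread between them. 1 contig that the rule names is not reported here.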

Additional observations from a re-analysis of the deposited data

Results flagged for a closer look

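The change from week 2 to week 5 differed between control heads and control tails in 2 contigs, both without a name. dd_1317 stood at 63.4, 65.1 and 54.9 CPM in week 5 heads, against 59.0, 65.9 and 57.6 CPM in week 2 heads, and at 88.8 to 107 CPM in week 5 tails, against 40.2 to 45.9 CPM in week 2 tails. The head change minus the tail change was -1.18 ± 0.16 (SE) on the log2 scale (edgeR, adjusted p = 0.00191). dd_199 stood at 46.9, 38.4 and 41.4 CPM in week 5 heads, against 52.7, 49.9 and 55.2 CPM in week 2 heads, and at 46.2 to 72.1 CPM in week 5 tails, against 29.4 to 34.7 CPM in week 2 tails, which gave -1.13 ± 0.17 (adjusted p = 0.00461). For both contigs the tails of the separate fit rose, by 1.18 ± 0.11 and 0.81 ± 0.15.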

How the results depend on the processing

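The count of contigs called between weeks 5 and 2 in control heads stayed within 1.5 times of 3190 under other size factors, filters, row sums, DESeq2, a fit of the 6 libraries alone and a replicate block. With all 24 head libraries in the fit the counts were 320 for week 5 against week 2 (78.8% higher, against 61.6%), 26 for week 3 against week 2, 0 for week 4 against week 3 (322 at an unadjusted p under 0.05), 7 for week 5 against week 4 and 238 for the slope. The step of week 4 against week 3 had 22 calls without a filter and 32 with DESeq2, week 5 against week 4 had 326 in the fit of its own libraries, and DESeq2 called 537 contigs in tails and 11 for heads minus tails. Leaving out 1 library gave 1621 to 3281 for week 5 against week 2, 176 to 746 for week 3 against week 2, 2 to 16 for week 4 against week 3, 140 to 621 for week 5 against week 4, 1133 to 2587 for the slope, 48 to 261 in tails and 2 for heads minus tails. The share called higher was 53.1% with a mean of at least 100 counts and 69.8% with DESeq2. The cause of these differences was not tested, beyond the fewer libraries. Of 51 called contigs in the named set, 13 kept their call in all 20 settings, 32 in the 19 besides the fit of 24 head libraries, and none changed direction. Of 30 uncalled ones, 3 changed sign: with a mean of at least 100 counts *nr4A* was at -0.013 and *notum* at -0.011, and without 1 library *nr4A* ran between -0.0341 and 0.0324, *notum* between -0.0742 and 0.159 and *islet1* between -0.0293 and 0.0341. The deviations of same-numbered libraries of weeks 5 and 2 correlated at 0.062, -0.197 and -0.462, and those of differently numbered ones at -0.34 to 0.411. These values gave no sign that replicate numbers pair the samples. With 3 libraries per week they cannot exclude a pairing. The fit with the replicate block called 2911 contigs between weeks 5 and 2 and 7 between weeks 4 and 3. In simulated counts of this depth, changes of 0.25 on the log2 scale were mostly missed. Few contigs changed in that simulation, so its cut-off on p was stricter than in the data. It does not show which differences were detectable here.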
